A study of Homo sapiens with 4 samples.

Results

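The 10 genes described here carry glucose into the cell, commit it to glycolysis and send its end product out as lactate: SLC2A1, SLC2A3, HK1, HK2, PFKFB3, PFKFB4, PFKP, PKM, LDHA and SLC16A3. They were chosen by name, with earlier results of these data known. A probe set is a group of short oligonucleotides meant to read 1 transcript, though some may read more. Every probe set whose only platform symbol was among the 10 genes was read. This gave 17 of the 54675 probe sets on the array. They covered 9 of the 10 genes, out of 19775 genes with a probe set of their own. Of the 17, 8 carry the suffix _x_at or _s_at, which marks possible reading of more than 1 transcript. SLC16A3, which encodes a lactate exporter, had no probe set listed under its symbol alone and is not analysed here. RNA came from U937 cells, an established human line grown from a lymphoma of monocytic character. One group of cells had received 100 nM shikonin for 3 h, and the control group dimethyl sulfoxide (DMSO), the solvent, whose duration the sources used here do not state. Each group had 2 samples with 1 array each, and the sources used here do not say whether the samples were separate cultures, so p-values measure only the spread between these samples, which may be technical. The study compared the transcripts of the treated cells with those of the solvent control.

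Glucose enters blood-derived cells mainly through facilitative transporters of the SLC2A family. Hexokinase then traps it as glucose 6-phosphate, and phosphofructokinase, which is switched on by fructose 2,6-bisphosphate, commits it to glycolysis. PFKFB enzymes make and break down that activator. Pyruvate kinase forms pyruvate at the end of the pathway, lactate dehydrogenase turns pyruvate into lactate, and SLC16A3 exports it. Shikonin, a naphthoquinone from gromwell roots, is known as an inhibitor of the PKM2 form of pyruvate kinase. The arrays measured RNA and hold no value for enzyme activity.

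The 4 arrays had median signals of 60.5 to 63.7 and the same trimmed mean (500.1), so their values appear scaled to one level. A change here is then a shift against the other probe sets of an array. Correlations of log2 signals were 0.980 within each group and 0.972 to 0.974 between groups. Of 14 markers of monocytic and immature myeloid cells with a probe set of their own, 13 lay above the 40th percentile of every array (a signal of 34.8 to 37.4), among them ELANE, CTSG, AZU1 and LYZ, while FCGR1A did not. Their summed signal was 88257 and 93767 in DMSO and 86102 and 93112 after shikonin. Markers of other cell types gave summed signals of 199 to 244 (DMSO) and 115 to 163 (shikonin) for 5 T cell markers, 615 to 652 and 625 to 688 for 4 B cell markers, 634 to 689 and 646 to 778 for 3 erythroid, 329 to 411 and 340 to 454 for 6 fibroblast, and 137 to 219 and 123 to 171 for 5 epithelial markers. No marker was at 0. On every array 1 T cell, 2 B cell, 2 erythroid, 2 fibroblast and 1 epithelial markers lay above the 40th percentile. Single markers did not all separate the lists. The myeloid markers MPO (40.8 to 99.8) and CSF1R (110 to 153) were dimmer than the erythroid EPOR (486 to 672) and the B cell PAX5 (301 to 359). The T cell sum did not overlap between groups, and its part in the results was not tested. In RNA of whole cultures, fewer cells and less RNA per cell cannot be told apart.

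After shikonin, transcripts of the glucose transporter SLC2A3, the hexokinase HK2 and the regulatory enzyme PFKFB4 were lower, while those of SLC2A1, HK1, PFKFB3, PFKP, PKM and LDHA were not called in either direction. All 17 probe sets passed the filter on dim probe sets and entered the fit, which used limma on log2(signal + pseudocount) and adjusted p by Benjamini-Hochberg across the 32768 probe sets that remained. At an adjusted p under 0.05, 5 of the 17 were called lower, where 5.28% of all probe sets were, and 0 were called higher, where 3.92% were (9.20% in either direction). The 5 belonged to 3 genes: SLC2A3, HK2 and PFKFB4. At an unadjusted p under 0.05, limma gave 7 lower and 1 higher; the 1 higher was a PKM probe set. With a single variance prior in place of a trend on signal, limma called 0 of the 17, with unadjusted p under 0.05 for 5 lower and 0 higher. In 11 of the 17 both shikonin arrays lay below both DMSO arrays, against 26.1% of all probe sets, and in 2 above, against 27.0%. The median log2 change of the 17 was -0.30, beside 0.0077 over all probe sets tested. Several probe sets read the same gene, so they do not count as separate evidence. Because the genes were chosen with earlier results of these data known, the shares set beside all probe sets are a description only.

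**Figure D1:**
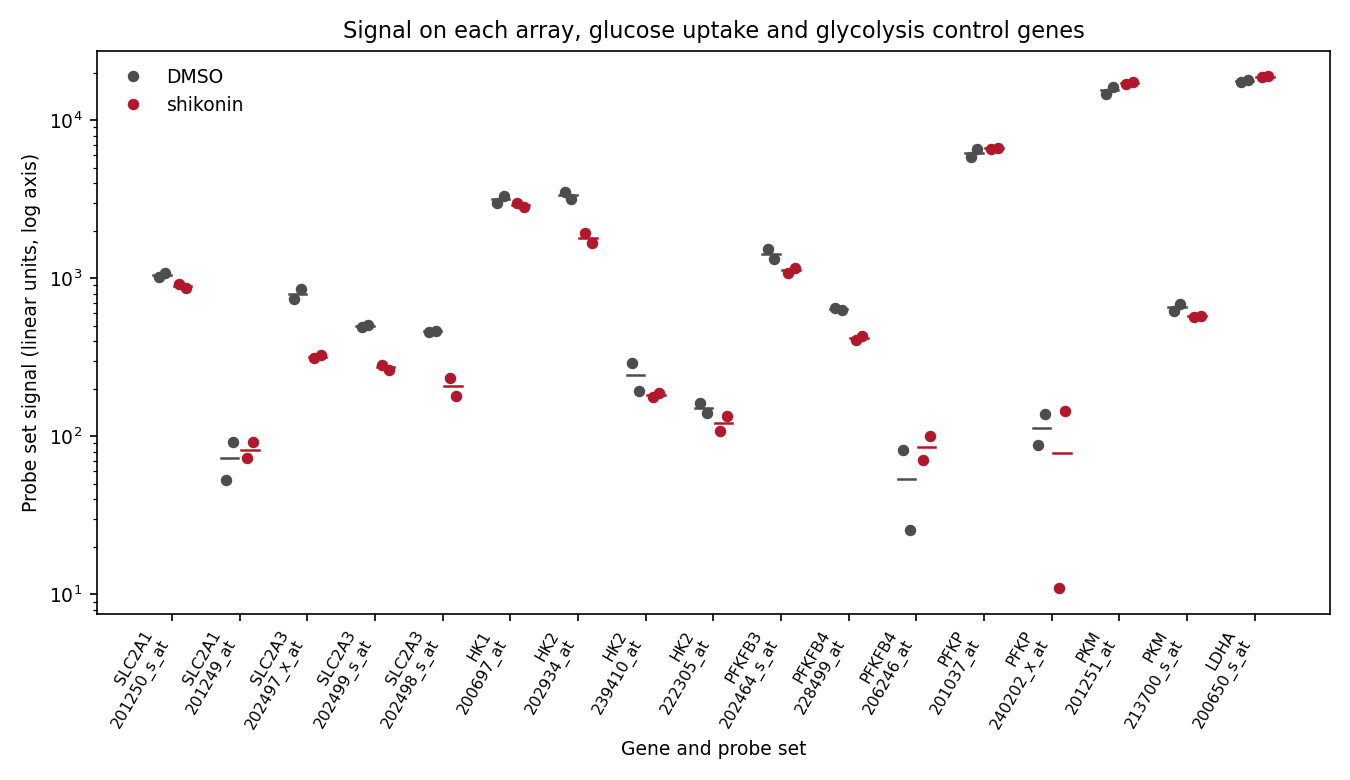
Signal of each of the 17 probe sets on each array (linear units on a log axis); points are arrays, short lines are group means, DMSO in grey and shikonin in red. All 3 SLC2A3 probe sets, HK2 202934_at and PFKFB4 228499_at show a clear gap between the groups, while PKM 201251_at and LDHA lie close together in both groups.

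SLC2A3, which encodes the high-affinity glucose transporter GLUT3, fell on all 3 of its probe sets. The signal of 202497_x_at was 735 and 855 on the DMSO arrays and 312 and 325 on the shikonin arrays. On 202499_s_at the values were 493 and 506 in DMSO and 281 and 264 after shikonin. The third, 202498_s_at, read 458 and 466 in DMSO and 235 and 179 after shikonin. The groups stood apart on each probe set, with every shikonin value far below every DMSO value.

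The log2 changes of SLC2A3 were -1.29 (SE 0.12, limma adjusted p = 4.12e-04) on 202497_x_at, -0.85 (SE 0.13, adjusted p = 0.00473) on 202499_s_at and -1.13 (SE 0.17, adjusted p = 0.00388) on 202498_s_at. After shikonin the transcript was thus at 41.0%, 55.5% and 45.6% of its DMSO level on this scale. Each of the 3 calls held with any 1 array left out. Changes as large as that of 202497_x_at, in either direction, were seen in 1.35% of all probe sets tested. SLC2A14 is a near-identical neighbouring copy of SLC2A3, and all 3 probe sets carry the suffix _x_at or _s_at that marks possible reading of more than 1 transcript, so the signal is uncertain as to the copy. A further 2 probe sets are listed for SLC2A14 and SLC2A3 together. For both genes together these read 588 ± 60.4 and 489 ± 24.4 in DMSO and 274 ± 14.7 and 301 ± 31.6 after shikonin (SD, n = 2 each), and both were called lower (log2 changes -1.07 and -0.68, limma adjusted p = 0.00178 and 0.0163).

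SLC2A1, which encodes GLUT1, the widely expressed basal glucose transporter, did not pass the test. Its probe set 201250_s_at read 1022 and 1081 in DMSO and 915 and 863 after shikonin, without overlap of the groups. The log2 change was -0.24 with a 95% interval of -0.44 to -0.04 (limma adjusted p = 0.137). The dimmer 201249_at read 52.7 and 92.4 in DMSO and 72.5 and 91.3 after shikonin, so its groups overlapped. Its log2 change of 0.19 had an interval of -0.61 to 0.995 (adjusted p = 0.802), and without DMSO 1 its sign turned (-0.16), so this probe set gives no direction.

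HK2, the inducible hexokinase that binds mitochondria, fell on the brightest of its 3 probe sets. The signal of 202934_at was 3504 and 3181 in DMSO and 1920 and 1677 after shikonin. Both shikonin arrays lay well below both DMSO arrays. HK2 thus had a log2 change of -0.89 (SE 0.085, limma adjusted p = 4.22e-04), which is 53.9% of the DMSO level, and the call held with any 1 array left out. The other HK2 probe sets were dimmer and did not pass. On 239410_at the signal was 292 and 194 in DMSO and 178 and 187 after shikonin (log2 change -0.37, 95% interval -0.86 to 0.13, adjusted p = 0.352). On 222305_at it was 163 and 139 in DMSO and 108 and 134 after shikonin (-0.30, interval -0.83 to 0.23, adjusted p = 0.487). Both had values below 0 without overlap of the groups, but their size depended on single arrays: 239410_at was at -0.082 without DMSO 1 and -0.65 without DMSO 2, and 222305_at ran from -0.45 without shikonin 2 to -0.16 without shikonin 1.

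HK1, the hexokinase that most cells express constantly, had 1 probe set, 200697_at. Its signal was 3006 and 3297 in DMSO and 2995 and 2817 after shikonin. The groups did not overlap, but the gap between 3006 and 2995 was far smaller than the distance between arrays of either group. The log2 change of HK1 was -0.12 with an interval of -0.28 to 0.05 (limma adjusted p = 0.372), or a difference from DMSO of -17.5% to 3.26%.

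PFKFB4, one of the enzymes that set the level of fructose 2,6-bisphosphate, was called lower on 228499_at. The signal there was 646 and 632 in DMSO and 409 and 432 after shikonin. The groups stood apart, and arrays of one group differed little. PFKFB4 had a log2 change there of -0.59 (SE 0.11, limma adjusted p = 0.0124), or 66.4% of the DMSO level. Without DMSO 1 the change was -0.58 and missed the threshold (adjusted p = 0.0514). The other probe set, 206246_at, read 81.6 and 25.7 in DMSO and 70.9 and 101 after shikonin. There the DMSO arrays spanned most of the range, 1 of them below the 40th percentile of its array, and the log2 change of 0.73 had an interval of -0.35 to 1.81 (adjusted p = 0.402). It was 1.41 without DMSO 1 and 0.048 without DMSO 2. The direction of PFKFB4 thus rests on 228499_at.

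PFKFB3, the member of that family with the strongest kinase over phosphatase activity, lay just outside the threshold. Its probe set 202464_s_at read 1520 and 1330 in DMSO and 1081 and 1162 after shikonin, without overlap. PFKFB3 had a log2 change of -0.34 (95% interval -0.55 to -0.13, limma adjusted p = 0.0533). Without DMSO 2 the change was -0.44 and passed (adjusted p = 0.0371), and without DMSO 1 it was -0.24 (adjusted p = 0.233). It also passed with the pseudocount at the 40th percentile (adjusted p = 0.0496) and under a stricter filter that dropped the dimmest 60% (0.0346). With the replicate number as a block it passed too (0.0213). PFKFB3 did not pass with quantile normalization (limma adjusted p = 0.0806), arrays centred on the log2 median (0.0605) or a pseudocount of 1 (0.0563). Nor did it pass without a filter on dim probe sets (0.101) or with a single variance prior (0.277). The change was -0.29 without shikonin 1 and -0.39 without shikonin 2.

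PFKP, the platelet-type subunit of phosphofructokinase, was not shown to change. On 201037_at the signal was 5833 and 6616 in DMSO and 6594 and 6653 after shikonin, with overlapping groups. The log2 change was 0.09 with an interval of -0.06 to 0.25 (limma adjusted p = 0.459), or a difference from DMSO of -4.14% to 18.6%. The second probe set, 240202_x_at, read 87.4 and 139 in DMSO and 10.96 and 145 after shikonin. One shikonin array was the lowest and the other the highest of all 4. Its log2 change of -1.08 rested on shikonin 1: without that array it was 0.37 (adjusted p = 0.623), without shikonin 2 it was -2.53 and passed (adjusted p = 0.0135), and with all 4 arrays it did not pass (adjusted p = 0.437).

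PKM, the gene of muscle-type pyruvate kinase, which makes the PKM1 and PKM2 forms by a choice between alternative exons, was not called in either direction. On 201251_at the signal was 14706 and 16129 in DMSO and 16953 and 17546 after shikonin. Both shikonin arrays lay above both DMSO arrays, by less than the distance between the DMSO arrays. The log2 change was 0.16 (SE 0.057, limma adjusted p = 0.114), with a 95% interval from 2.39% to 22.5% higher. It was 0.10 without DMSO 1 and 0.23 without DMSO 2 (adjusted p = 0.433 and 0.056), and 0.07 with quantile normalization (0.309).

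The second PKM probe set, 213700_s_at, read 623 and 687 in DMSO and 568 and 578 after shikonin. Here the shikonin arrays were the lower ones, without overlap. The log2 change was -0.19, with an interval of -0.43 to 0.05 (limma adjusted p = 0.328). The probe sets of PKM thus pointed opposite ways, neither past the threshold. They were not assigned to PKM1 or PKM2 here, so the values say nothing of the balance of the forms.

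LDHA, the lactate dehydrogenase subunit that favours lactate formation, had 1 probe set, 200650_s_at. Its signal was 17496 and 18069 in DMSO and 18840 and 18949 after shikonin. The shikonin arrays were higher without overlap, by a small margin. LDHA had a log2 change of 0.09 (SE 0.047, limma adjusted p = 0.299), and the interval ran from -1.303% to 14.4% relative to DMSO. With quantile normalization the change was -0.0070 (adjusted p = 0.928), so the direction depends on the scaling of the arrays.

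**Figure D2:**
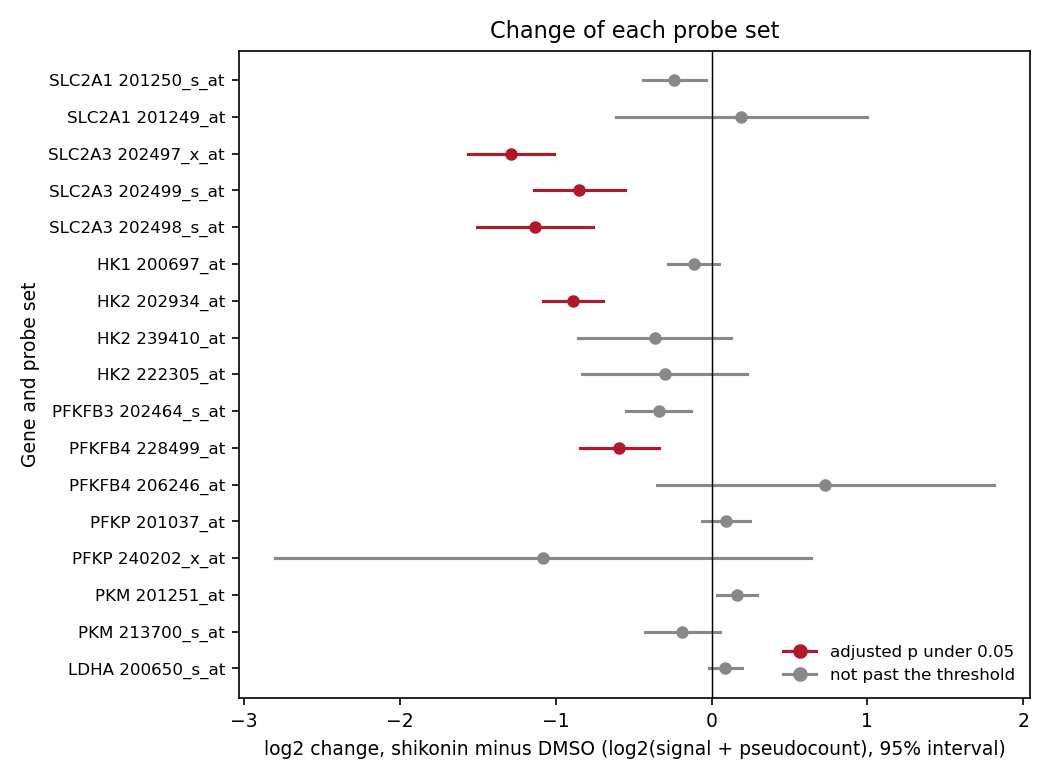
Log2 change of each probe set, shikonin minus DMSO, on the log2(signal + pseudocount) scale, with 95% intervals from limma; red marks an adjusted p under 0.05. The 5 red points lie between -0.59 and -1.29, and the wide intervals belong to dim probe sets such as PFKP 240202_x_at, which spans -2.80 to 0.64.

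Changes of related genes were set side by side as log2 ratios within each array, on the brightest probe set of each gene. The ratio of SLC2A3 to SLC2A1 was -0.47 and -0.34 in DMSO and -1.52 and -1.38 after shikonin, a difference of -1.05. For HK2 over HK1 it was 0.22 and -0.05 in DMSO and -0.64 and -0.75 after shikonin, a difference of -0.78. In both pairs the shikonin arrays lay below both DMSO arrays, by more than the distance between arrays of either group. The ratio of PFKFB4 to PFKFB3 was -1.22 and -1.06 in DMSO and -1.38 and -1.41 after shikonin, a difference of -0.25. PKM over LDHA gave -0.25 and -0.16 in DMSO and -0.15 and -0.11 after shikonin, a difference of 0.08. The groups of both pairs did not overlap, and for PKM over LDHA the difference was smaller than the distance between the DMSO arrays. An exact two-sided permutation test gave p = 0.333 for each of the 4 pairs (0.333 after Benjamini-Hochberg adjustment), which is the smallest that 2 arrays against 2 allow. Whether the genes of a pair changed differently is therefore not shown by this test, and the sizes are a description.

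**Figure D3:**
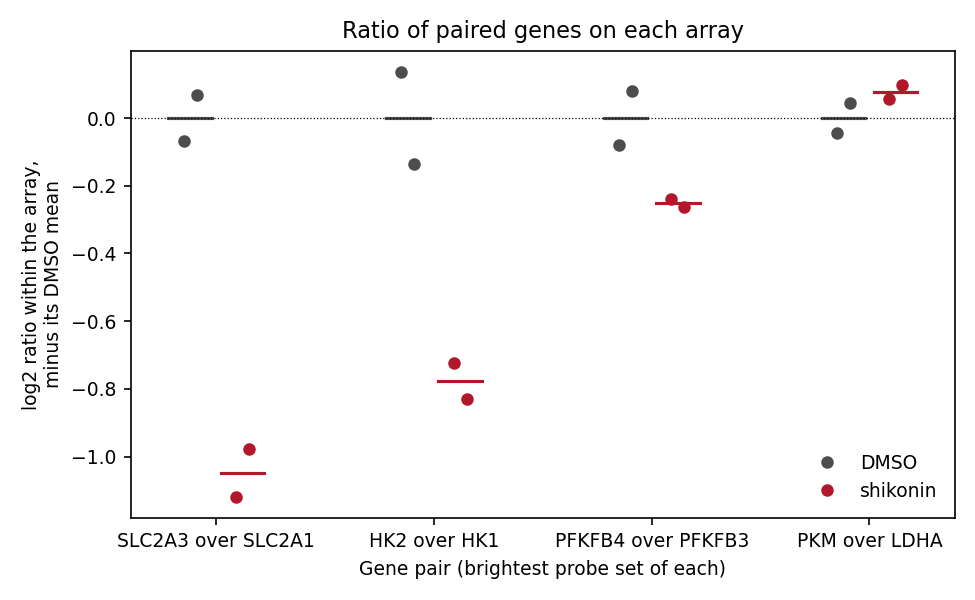
Log2 ratio of 4 gene pairs within each array, after subtracting the mean of the DMSO arrays of that pair; points are arrays, DMSO in grey and shikonin in red, and short lines are group means. SLC2A3 over SLC2A1 and HK2 over HK1 differed by -1.05 and -0.78 between shikonin and DMSO, and for PKM over LDHA the group means differed by 0.08.

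Sequences just upstream of the start sites were compared for HK2, which fell, and LDHA, which was not shown to change. They are shown because both hold the short core that hypoxia-inducible factors bind, a known input to glycolysis genes. The windows are 250 bases long, end at the base before the first start listed and come from RefSeq (GRCh38.p14): HK2 chr2:74833877-74834126 and LDHA chr11:18394313-18394562, both on the plus strand and outside the gene. Capitals mark ACGTG or GCGTG on either strand; on the other strand these read CACGT and CACGC.
HK2: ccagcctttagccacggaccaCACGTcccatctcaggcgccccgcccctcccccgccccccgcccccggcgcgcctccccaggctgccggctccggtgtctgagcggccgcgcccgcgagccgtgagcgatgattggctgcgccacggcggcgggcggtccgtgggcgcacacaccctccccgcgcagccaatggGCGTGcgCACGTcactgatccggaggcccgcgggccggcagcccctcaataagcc
LDHA: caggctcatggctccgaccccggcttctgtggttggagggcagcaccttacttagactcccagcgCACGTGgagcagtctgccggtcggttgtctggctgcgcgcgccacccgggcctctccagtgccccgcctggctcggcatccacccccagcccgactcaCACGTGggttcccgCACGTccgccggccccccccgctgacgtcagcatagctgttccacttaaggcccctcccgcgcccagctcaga
The HK2 window held 3 matches, whose first bases lie 229, 55 and 48 bases before the start. LDHA had 5 matches; 4 of these come in pairs on both strands of 2 E-boxes (CACGTG, which overlaps ACGTG), at 185 and 87 bases before the start, and the remaining one lies at 73 bases.

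Of all 35116 windows of this length in the table, 43.2% held ACGTG or GCGTG and 6.34% held CACGTG, so such matches are common. The PKM and SLC2A1 windows, 1 each, held no ACGTG or GCGTG, and the single PFKFB4 window held 1 match. Both windows of PFKFB3 and both of HK2 had at least 1 match, as did 2 of 4 for PFKP and 1 of 7 for HK1. The second HK2 window, not shown, held 6 matches and 2 E-boxes, and the second of LDHA held 1 match and 0 E-boxes. Of the PFKFB3 windows, 1 held an E-box. The windows shown were picked because both hold the core, so its presence cannot set HK2 apart from LDHA. They were not alike in E-boxes, with 0 in the HK2 window and 2 in the LDHA window. Matches were thus present in genes that were called lower and in LDHA, which was not, and a match is a description of letters only. SLC2A3 is not in the table.

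Other genes of glucose metabolism were read from 7 lists, also chosen with earlier results of these data known. Each gene was read by its brightest tested probe set. Some listed genes not called on that probe set had another probe set that was called. Of 94 genes listed, 68 were tested; 6 were called higher, against 5.05% of all 13554 genes tested, and 5 lower, against 6.65%. Their median log2 change was 0.02, beside 0.0030 for all genes. Without DMSO 1 the number called higher was 3 and without shikonin 1 it was 2, while 5 were called lower with any 1 array left out. Among 4 further transporters and hexokinases none was called, with a median of -0.07. SLC2A13, a proton-coupled inositol transporter, had a log2 change of -0.28 (95% interval -0.73 to 0.18) and SLC2A9, a urate transporter, by -0.12 (-0.40 to 0.17).

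Among the 14 further glycolytic enzymes, 1 was called higher and 0 lower, with a median log2 change of 0.05. The 1 was ALDOA, an aldolase, at 17525 ± 565 in DMSO and 20500 ± 742 after shikonin (SD, n = 2 each; log2 change 0.23, limma adjusted p = 0.0268). It missed the threshold without DMSO 1 (adjusted p = 0.106), shikonin 1 (0.0676) or shikonin 2 (0.178). With quantile normalization the ALDOA change was 0.13. The list ran from -0.53 to 0.27 in log2 change. The enzymes between phosphofructokinase and pyruvate kinase thus gave no call for a fall; their difference from SLC2A3, HK2 and PFKFB4 was not tested.

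Of 16 genes that handle pyruvate and lactate, 1 was called lower and 1 higher, with a median of 0.03. PDP1, the phosphatase that reactivates pyruvate dehydrogenase, fell from a mean of 2015 ± 113 to one of 1241 ± 67.1 (SD over 2 arrays; log2 change -0.69, limma adjusted p = 0.00124), and its other tested probe set was also called lower (-0.72). MPC1, a subunit of the mitochondrial pyruvate carrier, changed by 0.24 (adjusted p = 0.0426) but missed the threshold without DMSO 1, DMSO 2, shikonin 1 or shikonin 2 (0.142, 0.0762, 0.203 and 0.082), and with either other scaling of the arrays (0.0616 with quantile normalization, 0.0839 with arrays centred on the median).

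The pentose phosphate pathway branches off after hexokinase and supplies NADPH. Of its 6 tested genes, 2 were called higher and 0 lower, where 5.05% and 6.65% of all genes tested were. Their median log2 change was 0.17. PGD, 6-phosphogluconate dehydrogenase, read 7344 ± 425 in DMSO and 11158 ± 141 after shikonin (SD, n = 2 each; log2 change 0.60, limma adjusted p = 4.12e-04). Its other tested probe set gave -0.73, the opposite direction, so the rise rests on the brightest alone. TALDO1, transaldolase, rose by 0.29 (adjusted p = 0.00782), and both calls held with any 1 array left out. With quantile normalization the changes of PGD and TALDO1 were 0.52 and 0.20. Among 12 genes of gluconeogenesis and glycogen, 1 was called higher and 0 lower, with a median of 0.01. The 1 was GBE1, the glycogen branching enzyme (0.34, limma adjusted p = 0.0217). It missed the threshold without DMSO 2 (0.0812) or shikonin 1 (0.109).

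Of 10 tested regulators of glycolysis genes, 3 were called lower and 1 higher, where 6.65% and 5.05% of all genes tested were. Their median log2 change was -0.10. HIF1A, the oxygen-regulated subunit of hypoxia-inducible factor, read 4241 and 3840 in DMSO and 2452 and 2387 after shikonin (log2 change -0.74, limma adjusted p = 4.12e-04). MLX, a partner of the glucose-sensing Mondo factors, changed by -0.55 (adjusted p = 0.00376; 2 of its 4 other tested probe sets were also called lower) and MYC, a transcription factor that activates many glycolysis genes, by -0.38 (0.00352). TXNIP, an inhibitor of glucose uptake that Mondo factors induce, rose by 0.41 (0.0218). The TXNIP call was lost without DMSO 1, DMSO 2 or shikonin 1 (0.053, 0.0525 and 0.116), and its 2 other probe sets, at 0.11 and 0.16, did not pass. HIF1A, MLX and MYC were called lower with any 1 array left out. Whether these changes bear on SLC2A3, HK2 or PFKFB4 was not tested.

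Among 6 factors linked to the exon choice of PKM, 1 was called lower and 0 higher, with a median of 0.05. NEK2, a mitotic kinase reported to act on that choice, fell, with means of 2632 ± 27.1 and 1916 ± 152 (SD over 2 arrays; log2 change -0.46, limma adjusted p = 0.00695), and its other probe set was called lower too (-0.45). The remaining 5 were not called on their brightest probe sets.

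**Figure D4:**
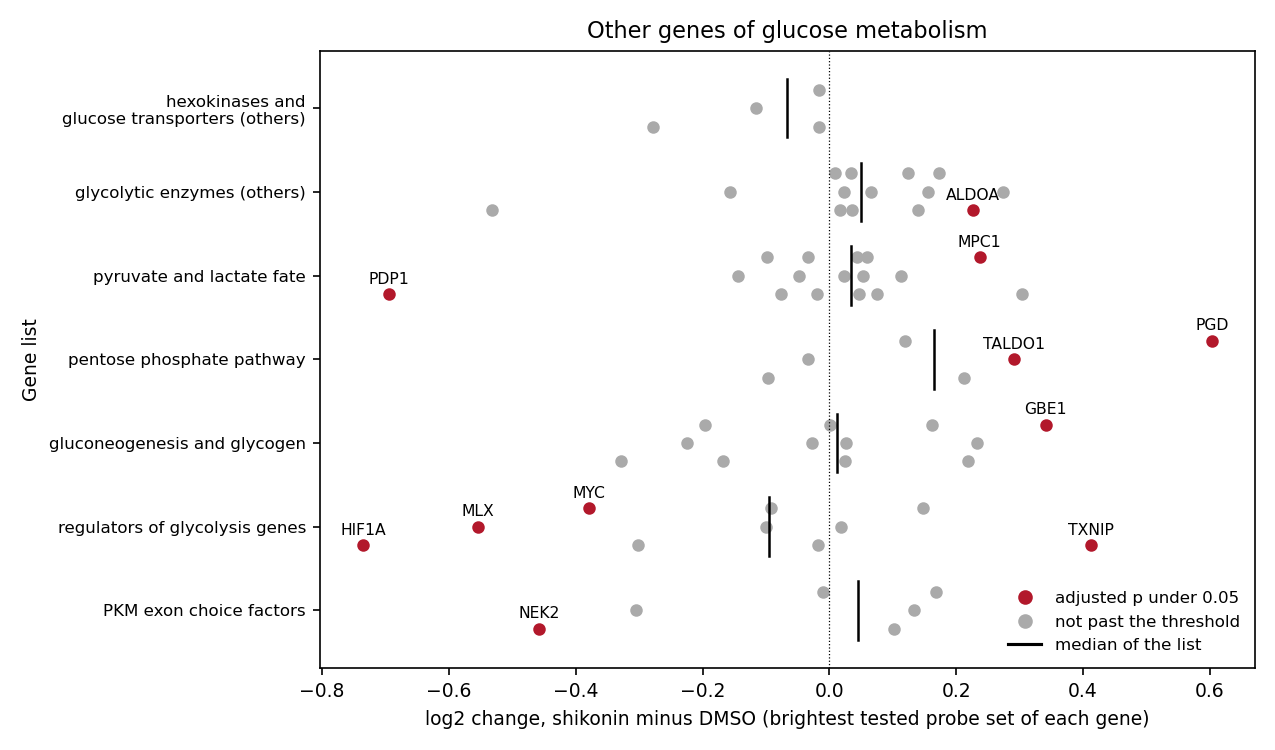
Log2 change, shikonin minus DMSO, of the 68 tested genes in 7 lists, each by its brightest probe set; red points are genes with a limma adjusted p under 0.05, grey points the rest, and black lines the list medians. The 11 red points are named and lie between -0.74 for HIF1A and 0.60 for PGD, while the list medians lie between -0.10 and 0.17.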

How the data were processed

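Biotin-labelled RNA of 4 samples was read on the Affymetrix U133 Plus 2.0 array, per the labels' protocols. The authors deposited 1 linear intensity per probe set and array. How probes were summarised is not given in the sources used. After trimming 2% of probe sets at each end the mean signal was 500.1 on all 4 arrays. Platform annotation gave 41097 of 54675 probe sets 1 gene symbol, 1801 several and 11777 none. Intensities were converted to log2(signal + 9.94), the 20th percentile, so folds of dim genes are understated. Control probe sets (62) and the 40% with the lowest mean were left out, which kept 32768. Two-sided tests used limma 3.58.1 in R 4.3.3 (eBayes with a variance trend) with a threshold of 0.05. The same-numbered arrays' deviations correlated at 0.022 and were not treated as pairs. The procedure was run on simulated data whose noise was made to follow signal, so that run could not test the variance trend. The 10 genes and the lists were chosen with earlier results of these data known. Names followed one rule: all 10 genes, and of each list up to 4 called genes with the smallest p, or 2 where none was called. The number of arrays limits precision. Alternatives were another pseudocount, filter, scaling, variance prior, probe set choice, a replicate block and leaving out each array.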

Additional observations from a re-analysis of the deposited data

How the results depend on the processing

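With any 1 array left out, 4 to 6 of the 17 probe sets of these genes were called lower and 0 higher; over all probe sets the numbers were 577 to 957 higher and 1099 to 1295 lower, against 1286 and 1729 with all arrays, and for the 68 listed genes 2 to 4 higher and 5 lower. A single variance prior called 0 in either direction in all 3 sets, with unadjusted p under 0.05 for 5970 probe sets, 5 of the 17 and 11 of the 68, so every call rests on a variance that follows signal. Without a filter on dim probe sets 638 were called higher and 1111 lower, and 2 listed genes higher. With the replicate number as a block, for which the labels give no pairing, the counts were 2327 higher and 2606 lower, 1 of the 17 higher (PKM 201251_at, adjusted p = 0.00823) and 13 listed genes higher; PFKFB3 was then called lower (0.0213). Without _x_at and _s_at probe sets, which removes all of SLC2A3, 2 probe sets of these genes were called lower, 3 listed genes higher and 3 lower. Direction turned for SLC2A1 201249_at without DMSO 1 (-0.16, with 0.54 without DMSO 2), for PFKP 240202_x_at without shikonin 1 (0.37, with -2.53 without shikonin 2), for LDHA with quantile normalization (-0.0070) and for PGD with the mean of its probe sets (-0.062). The causes were not tested where the setting itself does not show them. Differences of the 4 pairs kept their sign in each alternative run. The leave-one-out values were added after the data were seen. As the groups of each pair did not overlap, leaving out an array could not turn the sign. Centring the arrays leaves a ratio within an array unchanged, so neither kind of run tests the differences.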
